A study of Mus musculus with 28 samples.

Results

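A set of 7 receptor chains built around the common gamma chain was followed in mouse thymocytes that carry an Lmo2 transgene, with and without loss of Ldb1. The members were taken by symbol from the count table: Il2rg, the common gamma chain itself, and the other chains Il7r, Il2rb, Il15ra, Il4ra, Il21r and Il9r. They are 7 of 24421 symbols, and all 7 passed the filter on low counts that left 14371 genes for testing. Il2ra, whose protein CD25 is used to sort these cells, is not a member. The series asked whether Ldb1 is needed for what the Lmo2 oncogene does to early T-cell precursors. Its 28 RNA-seq libraries are bulk samples of sorted CD4- CD8- (double-negative, DN) thymocytes at 2 stages, DN2/3 and the later DN4, from wild-type C57BL/6 mice (4 libraries a stage), from mice with the Lmo2 transgene (Lmo2tg, 5 a stage) and from Lmo2tg mice that also lack Ldb1 (labelled Lmo2tg; Ldb1-KO, 5 a stage, called Ldb1-KO below). Both transgenic genotypes carry the Lmo2 transgene, so that Ldb1-KO against Lmo2tg is the comparison of Ldb1 loss. No source used here gives the promoter of the transgene, the Cre line that deleted Ldb1 in these animals, or the animals' ages.

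Receptors of this family work as pairs or trios of chains. The common gamma chain binds the kinase Jak3, and the signalling chain paired with it binds Jak1. Ligand binding leads to phosphorylation of Stat factors, mostly Stat5 for interleukin-7, interleukin-2, interleukin-15 and interleukin-9, Stat6 for interleukin-4 and Stat3 for interleukin-21. In the thymus interleukin-7 and its receptor chain Il7r keep double-negative cells alive and growing, in part by way of Bcl2. Thymocytes normally carry less Il7r after the pre-T-cell receptor checkpoint and regain it as mature T cells. Lmo2 is a LIM-only adaptor with no DNA contact of its own, and Ldb1 joins it to complexes that include E-box and GATA binding proteins. These statements are background.

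The labels were checked first. Lmo2 lay between 0 and 0.410 CPM (counts per 1000000 of the library, scaled by trimmed means of M values, TMM) in the 8 wild-type libraries and between 25.3 and 68.9 CPM in the 20 transgenic ones. Ldb1 lay between 57.1 and 120 CPM in the Ldb1-KO DN2/3 libraries and between 6.11 and 54.7 CPM in the Ldb1-KO DN4 libraries, all below the 247 to 550.4 CPM of the other groups, and they were lower at DN4 than at DN2/3 within Ldb1-KO (log2 -1.94, edgeR adjusted p = 0.000146). Il2ra, the gate gene, was at 606 CPM or more in all DN2/3 libraries and at 131 CPM or less in all DN4 libraries. The general cell type label of the series is CD4 T cells, whereas the subtype label is double-negative. Cd4 and Cd8a mRNA, which the gate should keep low, reached 422 and 742 CPM in Lmo2tg DN4 replicate 1. They reached 329 and 713 CPM in Ldb1-KO DN4 replicate 2. Cd8a was at 136 CPM or more in all transgenic DN4 libraries and at most 57.5 CPM in wild-type DN4. Library names follow 1 series in wild type and another in the transgenic groups, so library series and genotype cannot be told apart in any comparison with wild type. Totals ran from 28095652 to 106933472 counts a library. Whether each replicate is an animal of its own is not stated, and a p-value here speaks only for the spread among these libraries, which may be technical.

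Il7r and Il9r were the 2 members lower in Ldb1-KO than in Lmo2tg at both stages, and their upstream DNA is shown because the members of an Lmo2 and Ldb1 complex that touch DNA read E-box and GATA motifs. The window searched is the 250 bases before the start site listed in RefSeq (GRCm38.p6, the build of mm10), 5′ to 3′ on the gene's strand, with each E-box core (CANNTG) and each GATAA, or its reverse complement TTATC, in capitals. Il7r lies at chr15:9505788-9530176 on the minus strand (mm10, GENCODE M21) and its window is chr15:9529877-9530126. The outer end of that window falls in an exon of another GENCODE transcript of Il7r, so the 164 bases of chr15:9529877-9530040 next to the start are printed. Il9r lies at chr11:32187541-32200279 on the minus strand, and its window, printed whole, is chr11:32200280-32200529.
Il7r: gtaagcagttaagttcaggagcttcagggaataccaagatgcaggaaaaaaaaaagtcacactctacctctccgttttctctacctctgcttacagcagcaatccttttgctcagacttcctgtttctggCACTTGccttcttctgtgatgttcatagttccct
Il9r: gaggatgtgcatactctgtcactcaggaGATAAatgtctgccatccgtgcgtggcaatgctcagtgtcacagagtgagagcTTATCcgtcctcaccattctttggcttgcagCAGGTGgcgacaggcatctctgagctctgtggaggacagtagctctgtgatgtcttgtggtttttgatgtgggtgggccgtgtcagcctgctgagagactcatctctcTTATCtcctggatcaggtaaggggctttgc
The Il7r window held 3 E-box cores, which began 204, 192 and 34 bases before the start (the last of them is in the printed stretch), and no GATAA, and the Il9r window held 1 E-box core and 3 GATAA. The E-box core of Il9r began 138 bases before the start and its GATAA matches began 222, 169 and 30 bases before it. The other 4 members with a window (Il2rg, Il4ra, Il21r and Il15ra, the last with 2 start sites) held 0 to 3 E-box cores and no GATAA, and Il2rb has no entry. Of 32841 promoter windows of the same length, 66.2% held CANNTG and 22.6% held GATAA, both strands searched, and in the members' windows no match of either overlapped a match of the other. A match describes letters only, and binding was not measured here.

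Compared per length of exon, Il2rg was the highest member in all 6 groups, from 84.5 ± 2.63 CPM per kb in wild-type DN4 (SD, n = 4) to 151 ± 45.8 in Lmo2tg DN4 (SD, n = 5). In wild-type DN2/3 cells the order of CPM per kb was Il2rg (113), Il7r (29.4), Il21r (13.8), Il15ra (1.86), Il4ra (1.71), Il9r (1.34) and Il2rb (0.117), where the libraries of Il15ra, Il4ra and Il9r overlapped between neighbours and the other steps did not. In wild-type DN4 cells Il21r (18.0) stood above Il7r (9.38), followed by Il9r (5.07), Il2rb (1.95), Il15ra (1.16) and Il4ra (0.663), and of these steps only Il2rb and Il15ra overlapped. Il4ra and Il21r are neighbours on chromosome 7 (Il4ra at chr7:125552120-125579474 and Il21r at chr7:125603429-125633570, both on the plus strand). Il2rb (chr15:78479256-78495271, minus strand), Il15ra (chr2:11705290-11734317, plus strand) and Il2rg (chrX:101264378-101268255, minus strand) lie apart. In GENCODE M21, 24.4% of the 101-base stretches of Il2rg transcripts also occur in the overlapping gene model Gm20489 and 7.47% of those of Il4ra in the antisense model Gm44876, neither of which is a row of the count table. Gm20489 lies on the strand of Il2rg, so counting by strand would not separate the 2. Gm44876 lies on the strand opposite to Il4ra, and no source used here says whether counting used strand. The Il2rg and Il4ra counts are thus uncertain by reads from those models. The other 5 members shared none.

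**Figure D1:**
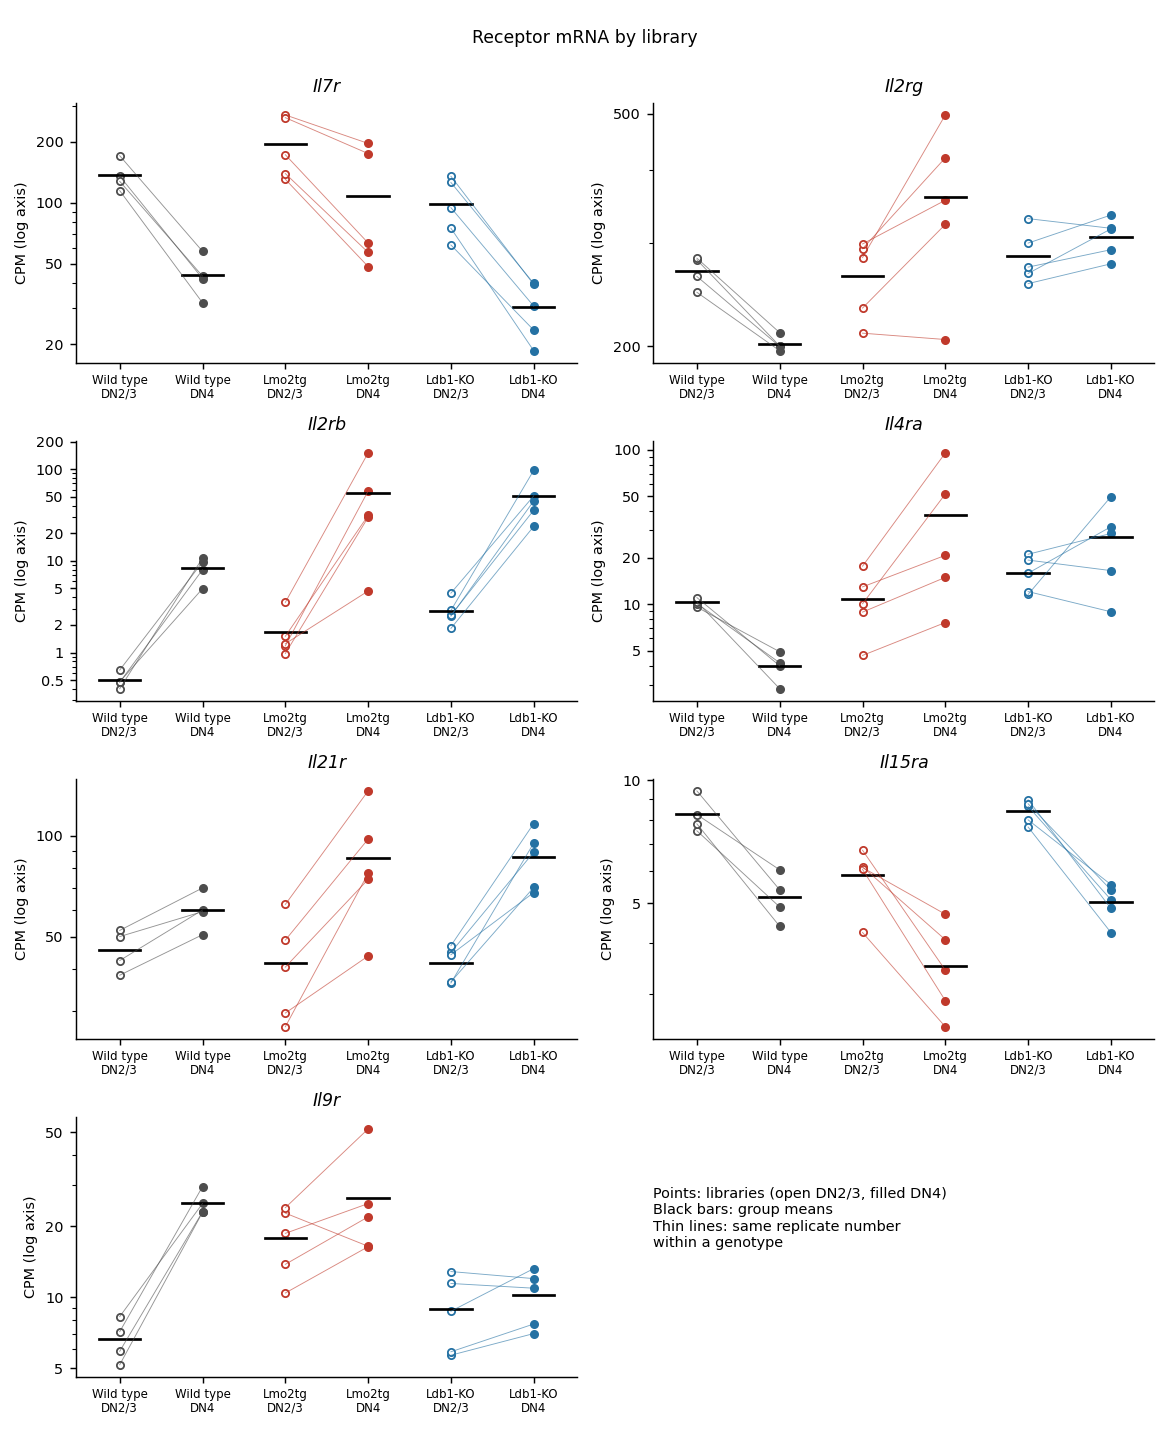
Level of each receptor in CPM (TMM scaled, log axis) for every library in the 6 groups, with group means as black bars and thin lines joining libraries of 1 replicate number within a genotype. The means of Il7r and Il9r sit lower in the Ldb1-KO groups than in the Lmo2tg groups, and Il2rb climbs from DN2/3 to DN4 in all 3 genotypes.

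Genes were called with edgeR's quasi-likelihood test at a Benjamini-Hochberg adjusted p below 0.05 over all 14371 genes, in a single model of the 6 groups. At DN2/3 the Lmo2 transgene came with higher Il2rb and Il9r and lower Il15ra than wild type, so 3 of 7 members were called against 29.5% of all genes. At DN4 Il7r, Il2rg, Il2rb and Il4ra were higher in Lmo2tg than in wild type and Il15ra was lower. That is 5 of 7 members in a comparison where 52.4% of all genes were called. The median log2 fold change of the 7 members was 0.08 at DN2/3 and 0.84 at DN4, beside 0.01 and 0.07 over all genes tested.

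Loss of Ldb1 on the Lmo2tg background came with lower Il7r and Il9r and higher Il15ra at both stages. These are 3 of 7 members at DN2/3, where 16.1% of all genes were called, and the same 3 at DN4, where 14.6% were called. The members' median log2 fold change was 0.11 at DN2/3 and -0.23 at DN4, beside -0.01 and -0.02 over all genes. Il2rg, Il2rb, Il4ra and Il21r were not called in this comparison at either stage. The interval of the difference was wide for Il2rb at DN4 (log2 -0.12, 95% interval -1.17 to 0.93) and narrow for Il21r (log2 0.01, 95% interval -0.45 to 0.46).

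Against wild type, Ldb1-KO cells had 1 of 7 members called at DN2/3, Il2rb, where 9.56% of all genes were called. At DN4 4 of 7 were called, Il2rg, Il2rb and Il4ra higher and Il9r lower, where 32.6% of all genes were called. The comparisons of 1 stage share libraries, so their values are given side by side and were not correlated.

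**Figure D2:**
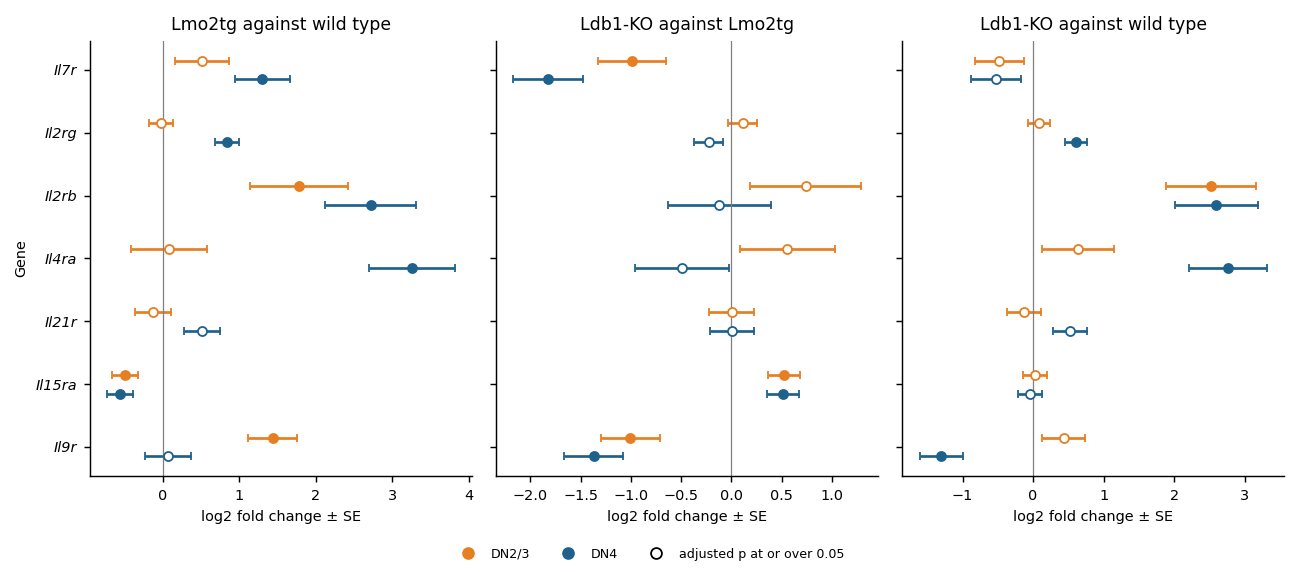
Log2 fold change with its standard error for each receptor in the 3 genotype comparisons at DN2/3 (orange) and DN4 (blue), with filled points for an adjusted p below 0.05 in edgeR. Il7r and Il9r lie below 0 and Il15ra above 0 in Ldb1-KO against Lmo2tg at both stages, while Il2rb and Il4ra reach their largest values against wild type at DN4.

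Il7r encodes the interleukin-7 receptor alpha chain, the survival receptor of double-negative thymocytes. In wild-type libraries 1 to 4 it stood at 115, 171, 135 and 127 CPM at DN2/3 and at 32.0, 57.5, 42.2 and 43.4 CPM at DN4. Lmo2tg libraries 1 to 5 gave 271, 131, 263, 139 and 173 CPM at DN2/3 and 196, 48.3, 175, 56.8 and 63.2 CPM at DN4. Ldb1-KO libraries 1 to 5 gave 135, 94.5, 126, 74.8 and 61.8 CPM at DN2/3 and 39.4, 30.8, 39.9, 18.5 and 23.5 CPM at DN4. In Lmo2tg, libraries 1 and 3 were the highest at both stages, and the 5 DN4 libraries split into 2 high and 3 low ones. All 5 Ldb1-KO DN4 libraries lay below all 5 Lmo2tg DN4 libraries, whereas the groups overlapped at DN2/3.

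At DN4 Il7r in Ldb1-KO was 28.2% of its Lmo2tg level (log2 fold change -1.82, SE 0.34, edgeR adjusted p = 0.000681), and it was called in all 39 alternative fits, with adjusted p from 1.68e-06 to 0.0325. At DN2/3 it was 50.4% of the Lmo2tg level (log2 -0.99, SE 0.34, edgeR adjusted p = 0.0441). That call is close to the threshold. It held in 24 of 39 alternative fits and was lost with upper-quartile scaling, total counts only or either other filter (0.0525 to 0.0714), and without Lmo2tg DN2/3 replicate 1 (adjusted p = 0.108), 3 (0.113) or 5 (0.0542) and without Ldb1-KO DN2/3 replicate 2 (0.0913), 4 (0.0898) or 5 (0.119). It was also lost without any 1 of 5 libraries of the other groups (wild-type DN2/3 replicates 3 and 4, wild-type DN4 replicates 3 and 4 and Ldb1-KO DN4 replicate 2), with adjusted p between 0.0501 and 0.0523. Lmo2tg exceeded wild type at DN4 by 2.47 times (log2 1.30, SE 0.37, edgeR adjusted p = 0.00457), with overlapping libraries, and was called in all 38 alternative fits (adjusted p from 0.000758 to 0.0405). At DN2/3 the difference was not called (log2 0.51, SE 0.36, edgeR adjusted p = 0.303). Against wild type, Il7r in Ldb1-KO was not called at DN2/3 (log2 -0.48, 95% interval -1.20 to 0.25) or at DN4 (log2 -0.52, 95% interval -1.25 to 0.21). Of the Cre lines named in the protocol, IL-7Ra-Cre is known as an insertion into the Il7r gene itself. No source used here says whether the Ldb1-KO libraries carry that allele, and its part in their Il7r level was not tested.

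Il9r encodes the interleukin-9 receptor chain, known for a growth effect of its ligand on early thymocytes and on thymic lymphoma cells. It read 8.27, 5.90, 7.14 and 5.17 CPM in wild-type DN2/3 libraries 1 to 4 and 24.96, 23.01, 29.4 and 22.9 CPM in wild-type DN4. In Lmo2tg it read 22.7, 18.7, 13.8, 24.0 and 10.4 CPM at DN2/3 and 16.4, 24.9, 21.9, 51.7 and 16.4 CPM at DN4. In Ldb1-KO it read 12.8, 5.67, 11.4, 8.72 and 5.87 CPM at DN2/3 and 11.99, 7.01, 10.9, 13.2 and 7.69 CPM at DN4. Every Lmo2tg DN2/3 library lay above every wild-type DN2/3 library, and every Ldb1-KO DN4 library lay below every DN4 library of the other genotypes. Lmo2tg DN4 replicate 4 stood at more than any other library of the series.

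Il9r rose 2.71 times in Lmo2tg against wild type at DN2/3 (log2 1.44, SE 0.32, edgeR adjusted p = 0.0011, and 2.87e-05 to 0.00677 in 38 alternative fits) and did not pass the test at DN4 (log2 0.07, SE 0.31, adjusted p = 0.869). The difference between these 2 effects was itself called (log2 -1.37, SE 0.44, edgeR adjusted p = 0.0251), though not without wild-type DN2/3 replicate 2 (0.0529) or 4 (0.0541) or wild-type DN4 replicate 3 (0.0520). In Ldb1-KO the level was 49.8% of that in Lmo2tg at DN2/3 (log2 -1.005, SE 0.29, edgeR adjusted p = 0.0175) and 38.7% at DN4 (log2 -1.37, SE 0.29, adjusted p = 0.00223, and 5.88e-05 to 0.0374 in 39 alternative fits). The DN2/3 call was lost without Lmo2tg DN2/3 replicate 4 (0.0559) or Ldb1-KO DN2/3 replicate 2 (0.0634) or 5 (0.0565). Against wild type, Il9r in Ldb1-KO was not called at DN2/3 (log2 0.43, SE 0.31, adjusted p = 0.396) and was at 40.5% of the wild-type level at DN4 (log2 -1.30, SE 0.31, edgeR adjusted p = 0.00326). At DN4 Ldb1-KO was thus below both other genotypes for this receptor. Mast cells and their precursors are also known to carry Il9r. Of 6 mast cell and basophil markers in the table, 2 were tested and 1 was higher in Lmo2tg than in wild type at each stage. The shares of all genes called were 29.5% at DN2/3 and 52.4% at DN4. The markers had sums of 60.2 to 106 CPM in wild-type DN2/3, 378 to 863 CPM in Lmo2tg DN2/3 and 128 to 703 CPM in Ldb1-KO DN2/3. At DN4 the sums were 1.76 to 5.45, 136 to 1577 and 2.59 to 370.1 CPM. Nearly all of each sum, apart from wild-type DN4 replicate 3 (1.85 of 2.68 CPM), was Cpa3, a mast cell protease gene also known from early thymic progenitors (a mean of 643 CPM in Lmo2tg DN2/3), whereas Gata2 stayed at or below 0.960 CPM and Fcer1a and Ms4a2 were at 0 in all libraries of both transgenic genotypes. The part of such cells in the Il9r result was not tested.

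Il15ra encodes the chain that captures interleukin-15 and presents it to neighbouring cells. Its levels were low, and it was the member with opposite direction to Il7r and Il9r in the Ldb1 comparison. It read 7.52, 8.24, 9.42 and 7.82 CPM in wild-type DN2/3 libraries 1 to 4, 6.74, 4.24, 6.11, 6.14 and 6.05 CPM in Lmo2tg, against 8.96, 8.64, 8.76, 7.9995 and 7.68 CPM in Ldb1-KO. The Lmo2tg DN2/3 libraries did not overlap those of either other genotype. At DN4 it read 4.89, 6.03, 5.39 and 4.39 CPM in wild type, 3.43, 2.49, 4.70, 4.07 and 2.88 CPM in Lmo2tg, against 4.85, 5.10, 5.39, 5.55 and 4.24 CPM in Ldb1-KO, with overlap.

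Il15ra in Lmo2tg was 70.9% of wild type at DN2/3 (log2 -0.50, SE 0.16, edgeR adjusted p = 0.024) and 67.9% at DN4 (log2 -0.56, SE 0.17, adjusted p = 0.00694). In Ldb1-KO it was 1.44 times the Lmo2tg level at DN2/3 (log2 0.52, SE 0.16, edgeR adjusted p = 0.0212) and 1.43 times at DN4 (log2 0.52, SE 0.16, adjusted p = 0.028). Ldb1-KO against wild type was not called, with a log2 difference of 0.03 at DN2/3 (95% interval -0.31 to 0.37) and -0.04 at DN4 (95% interval -0.38 to 0.30). The DN2/3 calls were lost without Lmo2tg DN2/3 replicate 2 (0.0767 against wild type and 0.0652 against Ldb1-KO), and that against wild type also without wild-type DN2/3 replicate 3 (0.09). Ldb1-KO against Lmo2tg at DN4 lost its call without Lmo2tg DN4 replicate 2 (0.0749) or 5 (0.0762) or Ldb1-KO DN4 replicate 2 (0.056), 3 (0.0598) or 4 (0.0589). With only the compared groups in the fit, the calls against wild type were lost at DN2/3 (0.0504) and DN4 (0.0986), and so was Ldb1-KO against Lmo2tg at DN4 (0.231).

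Il2rb encodes the beta chain shared by the interleukin-2 and interleukin-15 receptors, a chain known from natural killer cells and activated or memory T cells. Per length of exon it was the lowest member in wild-type DN2/3, and within Lmo2tg DN4 its libraries had the widest spread of the 7 members. The 4 wild-type DN2/3 libraries lay between 0.402 and 0.644 CPM, the 5 Lmo2tg ones between 0.975 and 3.53 CPM and the 5 Ldb1-KO ones between 1.83 and 4.45 CPM, so that neither transgenic group overlapped wild type. At DN4 it read 9.74, 8.01, 4.98 and 10.7 CPM in wild type, 151, 58.0, 29.9, 4.69 and 31.3 CPM in Lmo2tg, against 51.3, 45.2, 35.8, 23.8 and 97.5 CPM in Ldb1-KO. The Lmo2tg DN4 libraries of Il2rb spread 32.2 times, beside 12.5 times for Il4ra and 4.06 times for Il7r, from replicate 4, which lay below all wild-type libraries, to replicate 1.

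Il2rb in Lmo2tg was 3.44 times wild type at DN2/3 (log2 1.78, SE 0.64, edgeR adjusted p = 0.0365) and 6.57 times at DN4 (log2 2.72, SE 0.60, adjusted p = 0.000606). The latter was called in all 38 alternative fits (adjusted p from 1.36e-05 to 0.021), and without Lmo2tg DN4 replicate 1 it was log2 1.89 (edgeR adjusted p = 0.00372). The DN2/3 call was lost with limma-voom (adjusted p = 0.427), with total counts only or no filter (0.0512 and 0.0521), without any 1 of the 4 wild-type DN2/3 libraries (0.0547 to 0.0928) and without Lmo2tg DN2/3 replicate 1 (0.145). In Ldb1-KO it was 5.74 times wild type at DN2/3 (log2 2.52, SE 0.64, edgeR adjusted p = 0.0126; limma-voom 0.241) and 6.05 times at DN4 (log2 2.60, SE 0.59, edgeR adjusted p = 0.00263). Ldb1-KO against Lmo2tg was not called at DN2/3 (log2 0.74, SE 0.55, adjusted p = 0.403) or at DN4 (log2 -0.12, SE 0.51, adjusted p = 0.922).

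Il2rg is the chain every receptor of the family needs. At DN2/3 all 14 libraries lay between 210.5 and 331 CPM, and no genotype comparison was called. At DN4 the wild-type libraries lay between 196 and 211 CPM, those of Lmo2tg read 497, 323, 420.1, 205 and 355 CPM and those of Ldb1-KO lay between 277 and 335 CPM. Apart from Lmo2tg replicate 4, every transgenic DN4 library lay above every wild-type one. Il2rg rose 1.79 times in Lmo2tg (log2 0.84, SE 0.16, edgeR adjusted p = 0.00013) and 1.53 times in Ldb1-KO (log2 0.61, SE 0.16, adjusted p = 0.00578) against wild type at DN4. The Lmo2tg effect differed between the stages (log2 0.86, SE 0.22, edgeR adjusted p = 0.00783). Ldb1-KO against Lmo2tg at DN4 was not called (log2 -0.23, SE 0.15, adjusted p = 0.341) but was without Lmo2tg DN4 replicate 4 (log2 -0.37, edgeR adjusted p = 0.0214).

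Il4ra encodes the interleukin-4 receptor alpha chain, which also serves interleukin-13. Wild-type DN2/3 libraries lay between 9.57 and 11.03 CPM, and the Lmo2tg (4.66 to 17.6 CPM) and Ldb1-KO (11.6 to 21.0 CPM) libraries around or above them. At DN4 it read 4.92, 4.18, 2.84 and 3.99 CPM in wild type, 95.2, 51.6, 14.9, 7.61 and 20.7 CPM in Lmo2tg, against 28.7, 49.6, 8.93, 16.5 and 31.7 CPM in Ldb1-KO. Every transgenic DN4 library lay above every wild-type DN4 library, and within Lmo2tg replicate 1 was the highest and replicate 4 the lowest.

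At DN4 Il4ra was 9.55 times wild type in Lmo2tg (log2 3.26, SE 0.56, edgeR adjusted p = 5.21e-05) and 6.80 times in Ldb1-KO (log2 2.77, SE 0.55, adjusted p = 0.000927). Without Lmo2tg DN4 replicate 1 the first was log2 2.58 (edgeR adjusted p = 0.000164). At DN2/3 neither was called (log2 0.08, adjusted p = 0.929, and log2 0.64, adjusted p = 0.449). The Lmo2tg effect differed between the stages by log2 3.18 (SE 0.73, edgeR adjusted p = 0.00424), and by 2.49 without Lmo2tg DN4 replicate 1 (adjusted p = 0.0108). Ldb1-KO against Lmo2tg was not called at DN2/3 (log2 0.56, SE 0.47) or DN4 (log2 -0.49, SE 0.47), with adjusted p of 0.471 and 0.56.

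Il21r, the interleukin-21 receptor chain and the neighbour of Il4ra, was not called in any comparison of genotypes. The 14 DN2/3 libraries lay between 27.0 and 62.4 CPM. At DN4 the libraries lay between 50.7 and 69.8 CPM in wild type, 43.8 and 136 CPM in Lmo2tg, and between 67.7 and 109 CPM in Ldb1-KO. The Lmo2tg difference from wild type at DN4 was log2 0.51 (SE 0.24, edgeR adjusted p = 0.0714), and 0.68 without Lmo2tg DN4 replicate 4 (adjusted p = 0.00934). The Ldb1-KO difference from wild type at DN4 was log2 0.52 (SE 0.24, edgeR adjusted p = 0.0928), and its adjusted p was 0.0493 without that Lmo2tg library and 0.0116 with only the compared groups.

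Between the stages, Il2rb rose and Il15ra fell from DN2/3 to DN4 in all 3 genotypes. In wild type 6 of 7 members were called, in a comparison where 46% of all genes were: Il2rb and Il9r rose, and Il7r, Il2rg, Il4ra and Il15ra fell. In Lmo2tg 5 of 7 were called, where 15.4% of all genes were: Il2rg, Il2rb, Il4ra and Il21r rose and Il15ra fell. With only the 2 Lmo2tg groups in the fit, Il2rb alone stayed called, and Il2rg (0.293), Il4ra (0.149), Il21r (0.0992) and Il15ra (0.133) were not. In Ldb1-KO 4 of 7 were called, where 28.1% of all genes were: Il2rb and Il21r rose and Il7r and Il15ra fell. Within each genotype, libraries of the same number at the 2 stages deviated together, so a fit with these pairs as blocks is given where it changes a call.

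Il2rb was 16.8 times higher at DN4 in wild type (log2 4.07, SE 0.68, edgeR adjusted p = 4.54e-05), 32.2 times in Lmo2tg (log2 5.01, SE 0.62, adjusted p = 9.33e-06; log2 4.18 without Lmo2tg DN4 replicate 1) and 17.7 times in Ldb1-KO (log2 4.15, SE 0.59, adjusted p = 1.16e-05), with no overlap of stages in any genotype. Il15ra at DN4 was 62.7%, 60.02% and 59.8% of its DN2/3 level in wild type, Lmo2tg and Ldb1-KO. Il7r at DN4 was 31.9% of its DN2/3 level in wild type (log2 -1.65, SE 0.38, edgeR adjusted p = 0.00114) and 31.0% in Ldb1-KO (log2 -1.69, SE 0.34, adjusted p = 0.000652). In Lmo2tg it was 55.2% (log2 -0.86, SE 0.34, edgeR adjusted p = 0.0857). With pairs as blocks it was called there too (log2 -1.04, adjusted p = 3.29e-05), and so was the difference of that fall from the wild-type one (log2 0.62, adjusted p = 0.0144) and from the Ldb1-KO one (log2 -0.65, adjusted p = 0.0305). Leaving out Lmo2tg DN4 replicate 1 (adjusted p = 0.0226) or 3 (0.0378), or testing with limma-voom (0.0301), also brought the call of the Lmo2tg fall.

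Il9r rose 3.79 times in wild type (log2 1.92, SE 0.33, edgeR adjusted p = 6.52e-05), and was not called in Lmo2tg (log2 0.55, SE 0.29, adjusted p = 0.208; 0.0339 with pairs as blocks) or in Ldb1-KO (log2 0.19, SE 0.29, adjusted p = 0.677). Il4ra fell in wild type to 38.8% (log2 -1.37, SE 0.54, edgeR adjusted p = 0.0409) and rose in Lmo2tg 3.51 times (log2 1.81, SE 0.48, adjusted p = 0.0116). The wild-type call of Il4ra was lost without any 1 of the 8 wild-type libraries (0.0551 to 0.111) or Ldb1-KO DN4 replicate 5 (0.056). Its Lmo2tg call was lost without Lmo2tg DN4 replicate 1 (log2 1.13, adjusted p = 0.0908). Il2rg fell in wild type to 75.1% (log2 -0.41, SE 0.16, edgeR adjusted p = 0.0406) and rose in Lmo2tg 1.37 times (log2 0.45, SE 0.15, adjusted p = 0.0363). The wild-type call of Il2rg was lost without any 1 of 7 wild-type libraries (all but DN2/3 replicate 4; 0.0617 to 0.0975) or Ldb1-KO DN4 replicate 5 (0.0866), and its Lmo2tg call without Lmo2tg DN2/3 replicate 2 (0.065) or 4 (0.103) or DN4 replicate 1 (0.152) or 3 (0.0999). With limma-voom the Lmo2tg calls of Il2rg (0.066) and Il4ra (0.0734) and the wild-type call of Il4ra (0.111) were lost, with no filter those of both genes in wild type (0.0738 and 0.0617), and with another scaling those of Il2rg in wild type (DESeq2 size factors, 0.0581) and in Lmo2tg (total counts only, 0.0572). Il21r rose 2.05 times in Lmo2tg (log2 1.04, SE 0.23, edgeR adjusted p = 0.00234) and 2.06 times in Ldb1-KO (log2 1.04, SE 0.23, adjusted p = 0.00114). In wild type it was not called (log2 0.39, SE 0.25, adjusted p = 0.207) but was with pairs as blocks (adjusted p = 0.0123), and the difference of the Lmo2tg rise from the wild-type one was called with blocks (log2 0.63, adjusted p = 0.006) and not without them (log2 0.65, adjusted p = 0.149; 0.0326 without Lmo2tg DN4 replicate 4).

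For the interaction of stage and genotype, 3 of 7 members were called for the Lmo2tg effect, where 25.6% of all genes were: Il2rg and Il4ra, with a larger effect at DN4, and Il9r, with a larger effect at DN2/3. For the effect of Ldb1 loss, edgeR called 0 of 7, where 1.36% of all genes were called. DESeq2 and limma-voom called 0 as well, and 0 of 7 were at an unadjusted p below 0.05 with any of these 3 tools. The lowest edgeR adjusted p was 0.489, that of Il7r, the 1 member that the fit with pairs as blocks calls.

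Markers of other cells differed between genotypes at both stages, and their part in the results was not tested. In Ldb1-KO against Lmo2tg at DN2/3, 0 of 6 double-positive, 0 of 8 mature T-cell and 0 of 9 B-cell markers were called, beside 16.1% of all genes. Of 9 natural killer and innate lymphoid, 4 gamma-delta and 8 tested myeloid markers, 2, 2 and 2 were higher. At DN4, beside 14.6%, 1 double-positive, 1 mature T-cell, 1 gamma-delta, 1 myeloid and 5 B-cell markers were lower and 0 higher. Of natural killer and innate lymphoid markers, 1 was higher and 2 lower there. At DN2/3 Cd8a averaged 0.718 CPM in wild type, 46.1 CPM in Lmo2tg and 30.5 CPM in Ldb1-KO. Of 6 double-positive thymocyte markers 4 were higher and 1 lower in Lmo2tg DN2/3 than in wild type, and 5 were higher in Ldb1-KO. Of 8 mature T-cell markers 3 were higher in each. The shares of all genes called against wild type were 29.5% in Lmo2tg and 9.56% in Ldb1-KO at DN2/3, and 52.4% and 32.6% at DN4. Every marker count against wild type in this paragraph stands beside these shares. Some, such as 1 of 4 gamma-delta markers in Lmo2tg DN4, lie below them. Beside the higher Il2rb of both transgenic groups at DN2/3, 2 of 9 tested markers of natural killer and innate lymphoid cells were higher and 1 lower in Lmo2tg, and 2 higher in Ldb1-KO. Of 4 gamma-delta T-cell markers 1 was higher and 1 lower in Lmo2tg DN2/3 and 1 higher in Ldb1-KO DN2/3, with sums of 197 to 212 CPM in wild type, 195 to 405 CPM in Lmo2tg and 299 to 1548 CPM in Ldb1-KO. At DN4 the gamma-delta sums were 99.9 to 231, 137 to 536 and 74.5 to 1535 CPM, with 1 of 4 higher in Lmo2tg and 2 in Ldb1-KO than in wild type. In a bulk sample, more cells of a type and more RNA per cell cannot be told apart. Cd4 read 11.97, 4.08, 4.90 and 4.36 CPM in wild-type DN4 libraries 1 to 4, 422, 45.5, 54.0, 13.4 and 27.8 CPM in Lmo2tg DN4 libraries 1 to 5 and 68.9, 329, 23.6, 25.9 and 97.8 CPM in Ldb1-KO DN4. Lmo2tg replicates 1 and 4, the highest and lowest of their group in Cd4, were also the highest and lowest in Il2rb, Il4ra, Il2rg and Il21r, and replicate 4 was the highest in Il9r. Cd8a lay between 19.7 and 57.5 CPM in wild-type DN4 and between 136 and 742 CPM in the transgenic DN4 libraries. Of 6 double-positive thymocyte markers, Cd4 and Cd8a among them, 4 were higher in Lmo2tg and 5 in Ldb1-KO than in wild type at DN4. All 8 mature T-cell markers on the list were higher in Lmo2tg than in wild type at DN4, and 7 of 8 in Ldb1-KO, with summed levels of 149 to 249 CPM in wild type, 429 to 1439 CPM in Lmo2tg and 307 to 594 CPM in Ldb1-KO. Of 9 B-cell markers 8 were higher in Lmo2tg than in wild type at DN4 and 5 in Ldb1-KO, with sums of 11.4 to 14.5, 13.1 to 109 and 14.4 to 23.8 CPM. At DN2/3 1 was higher and 1 lower in Lmo2tg and 0 were called in Ldb1-KO. The DN2/3 sums were 42.5 to 44.2, 14.0 to 27.7 and 30.3 to 38.1 CPM. Of 8 myeloid markers tested, 3 were higher and 1 lower in Lmo2tg DN2/3, and 5 higher in Ldb1-KO DN2/3. Sums of all 10 in the table were 27.0 to 34.0, 17.6 to 25.8 and 31.8 to 44.0 CPM there. At DN4 4 myeloid markers were higher in Lmo2tg and 3 in Ldb1-KO. Of the 9 markers of natural killer and innate lymphoid cells tested, 5 were higher and 2 lower in Lmo2tg than in wild type at DN4. In Ldb1-KO 4 were higher and 1 lower than in wild type at DN4. The summed level of all 12 in the table lay between 368 and 514 CPM in wild type, 257 and 491 CPM in Lmo2tg, and between 178 and 360 CPM in Ldb1-KO. Klrb1c and Ncr1, defining natural killer cell genes, were highest in Lmo2tg DN4 replicate 1 (7.63 and 0.901 CPM), the library with the most Il2rb. The sum of all 12 markers in that library was 259 CPM, below every wild-type DN4 library. Ldb1-KO DN4 replicate 5, the next highest in Il2rb (97.5 CPM), had 0.841 CPM of Klrb1c and 0 of Ncr1. Klrb1c was at most 0.254 CPM in wild-type DN4, and Ncr1 was at 0 in 10 of 14 DN4 libraries. At DN2/3 Klrb1c was at 7.21 CPM in Lmo2tg replicate 1, the highest of its group in Il2rb (3.53 CPM). The other Lmo2tg DN2/3 libraries lay between 0.0985 and 0.241 CPM of Klrb1c, and Ncr1 was at 0 in that group. Ldb1-KO DN2/3 replicate 1, the highest of its group in Il2rb (4.45 CPM), had 0.0856 CPM of Klrb1c. Replicates 2 and 5 of that group had 2.86 and 4.56 CPM.

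**Figure D3:**
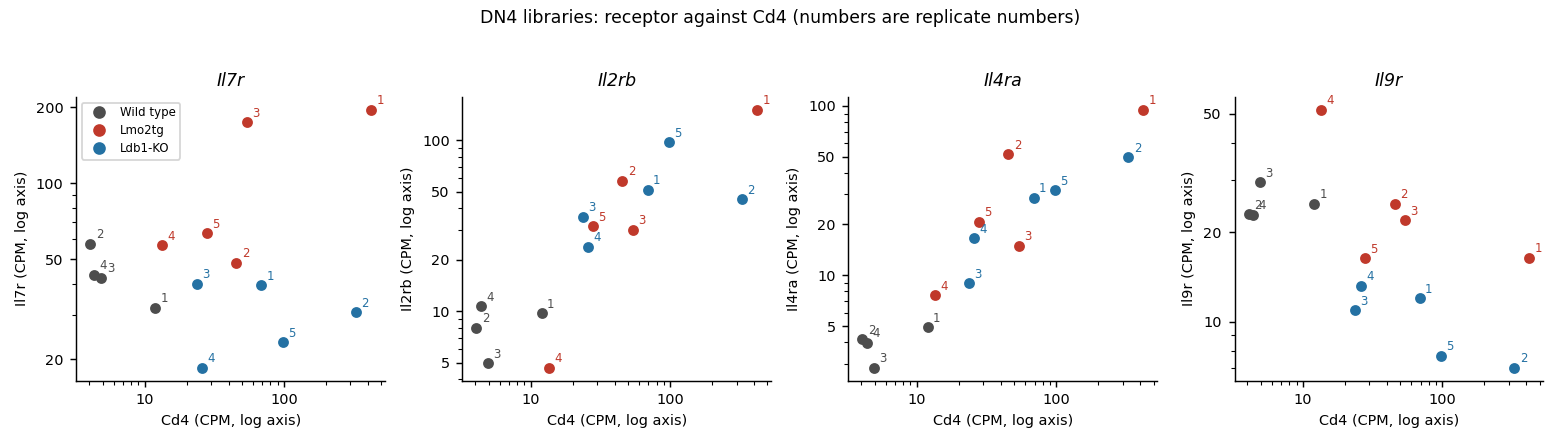
Il7r, Il2rb, Il4ra and Il9r against Cd4 in the 14 DN4 libraries (CPM on log axes, replicate numbers beside the points). Lmo2tg replicate 1 is the highest library in Cd4 (422 CPM), Il2rb (151 CPM) and Il4ra (95.2 CPM), and replicate 4 of that group is at 13.4 CPM of Cd4, 4.69 CPM of Il2rb and 51.7 CPM of Il9r.

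Leaving out the DN4 library highest in Cd4 in each transgenic group (Lmo2tg replicate 1 and Ldb1-KO replicate 2), a fit added after the data were seen, kept the same 5 calls in Lmo2tg against wild type at DN4, with Il2rb at log2 1.89 (edgeR adjusted p = 0.00458) and Il4ra at log2 2.58 (adjusted p = 0.000108). Il15ra lost its call in Ldb1-KO against Lmo2tg at DN4 (log2 0.50, adjusted p = 0.0858). Il7r gained one in the stage comparison of Lmo2tg (log2 -1.19, adjusted p = 0.0264), in which Il2rg (0.164) and Il4ra (0.0766) lost theirs.

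Downstream of the receptors, the Stat5 genes followed the genotype at both stages. Stat5a, which carries much of the family's signal to the nucleus, stood between 270.4 and 305 CPM in wild-type DN2/3 libraries, 488 and 708 CPM in Lmo2tg, and between 224 and 387 CPM in Ldb1-KO, and at DN4 between 184 and 193, 366 and 539.7, and 151 and 278 CPM. At neither stage did Lmo2tg overlap either other genotype. Stat5a was higher in Lmo2tg than in wild type by log2 1.14 (SE 0.16, edgeR adjusted p = 4.57e-06) at DN2/3 and 1.24 (SE 0.16, adjusted p = 1.52e-06) at DN4. In Ldb1-KO it was lower than in Lmo2tg by log2 -1.06 (edgeR adjusted p = 1.04e-05) and -1.10 (adjusted p = 1.38e-05), and Stat5b moved the same way (log2 0.75, 0.87, -0.70 and -0.66 in the same order). Stat5b, Stat5a and Stat3 lie side by side on chromosome 11, between bases 100780731 and 100939540 of mm10, and 262 of the 101-base stretches of Stat5a and Stat5b transcripts are shared between these 2 genes (3.402% and 4.73%). Stat3 was higher in Lmo2tg (log2 0.68 and 1.26 at DN2/3 and DN4) and lower in Ldb1-KO than in Lmo2tg (log2 -0.47 and -0.84). The latter call at DN2/3 was lost without Lmo2tg DN2/3 replicate 1, 3 or 5 or Ldb1-KO DN2/3 replicate 2, 3 or 4 (edgeR adjusted p from 0.053 to 0.118), and in 3 other fits (upper-quartile scaling 0.0602, total counts only 0.0923, only the compared groups 0.0625). Of the 9 Jak and Stat genes, 3 were higher and 0 lower in Lmo2tg at DN2/3, beside 29.5% of all genes called in either direction, and 7 higher and 0 lower at DN4, beside 52.4%. In Ldb1-KO against Lmo2tg 3 were lower at DN2/3 and 4 at DN4, beside 16.1% and 14.6% of all genes called, with Jak3, the kinase on the common gamma chain, among the latter (log2 -0.59, SE 0.18, edgeR adjusted p = 0.0301), though not without Lmo2tg DN4 replicate 1 (0.0934) or 5 (0.101) or Ldb1-KO DN4 replicate 2 (0.0999) or 3 (0.08). Without the DN4 library highest in Cd4 of each transgenic group Jak3 was at log2 -0.36 (0.246), and with only the compared groups its adjusted p was 0.164. Jak1 and Stat6 were not called in that comparison at either stage.

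Genes known as Stat5 targets or as brakes on this signalling moved in both directions at DN2/3. At DN2/3 Cish, a feedback inhibitor, lay between 18.0 and 24.6 CPM in wild type, 1.84 and 8.31 CPM in Lmo2tg, and between 13.1 and 29.5 CPM in Ldb1-KO, so that Lmo2tg overlapped neither. It was lower in Lmo2tg than in wild type (log2 -2.20, SE 0.52, edgeR adjusted p = 0.00204) and higher in Ldb1-KO than in Lmo2tg (log2 2.30, SE 0.51, adjusted p = 0.00196). Bcl2, a survival factor, did likewise (log2 -0.85 and 1.12), as did Socs3 (log2 -1.30 and 0.85), and the cell cycle gene Ccnd2 was also lower in Lmo2tg than in wild type (log2 -1.14, edgeR adjusted p = 0.00431). Socs2 was higher in Ldb1-KO than in Lmo2tg (log2 1.36), though not without Lmo2tg DN2/3 replicate 1, 3 or 4 or Ldb1-KO DN2/3 replicate 2, 3, 4 or 5 (edgeR adjusted p from 0.0576 to 0.0925). Pim1, Pim2, Bcl2l1 and Ccnd3 were higher in Lmo2tg than in wild type at DN2/3. The Pim1 call was lost without any 1 of 8 of the 9 libraries compared (all but Lmo2tg replicate 2) or Ldb1-KO DN4 replicate 1 (edgeR adjusted p from 0.0504 to 0.108) and with a replicate block (0.054), upper-quartile scaling (0.0866) or total counts only (0.111), and that of Bcl2l1 without wild-type DN2/3 replicate 2 (0.0617) or Lmo2tg DN2/3 replicate 5 (0.0608) or with total counts only (0.0579). Ccnd3 was lower in Ldb1-KO than in Lmo2tg (log2 -0.77). Of 14 genes, 4 were thus higher and 4 lower in Lmo2tg against wild type at DN2/3, beside 29.5% of all genes called. At DN4 9 were higher and 0 lower, beside 52.4% of all genes, among them Pim1 (log2 1.21) and Mcl1 (log2 0.90). With only the compared groups, Cish (edgeR adjusted p = 0.0661), Osm (0.0674), Ptpn2 (0.0645) and Ptpn6 (0.145) lost that DN4 call. Osm and Ptpn6 also lost it without wild-type DN4 replicate 1, 2 or 4 or Lmo2tg DN4 replicate 1 or 5. Ldb1-KO against Lmo2tg gave 4 higher and 1 lower at DN2/3 (16.1% of all genes) and 0 of 14 at DN4 (14.6% of all genes). The 0 held by edgeR, DESeq2 or limma-voom, with 1 at an unadjusted p below 0.05 in edgeR and DESeq2 (Ptpn2) and 2 in limma-voom.

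**Figure D4:**
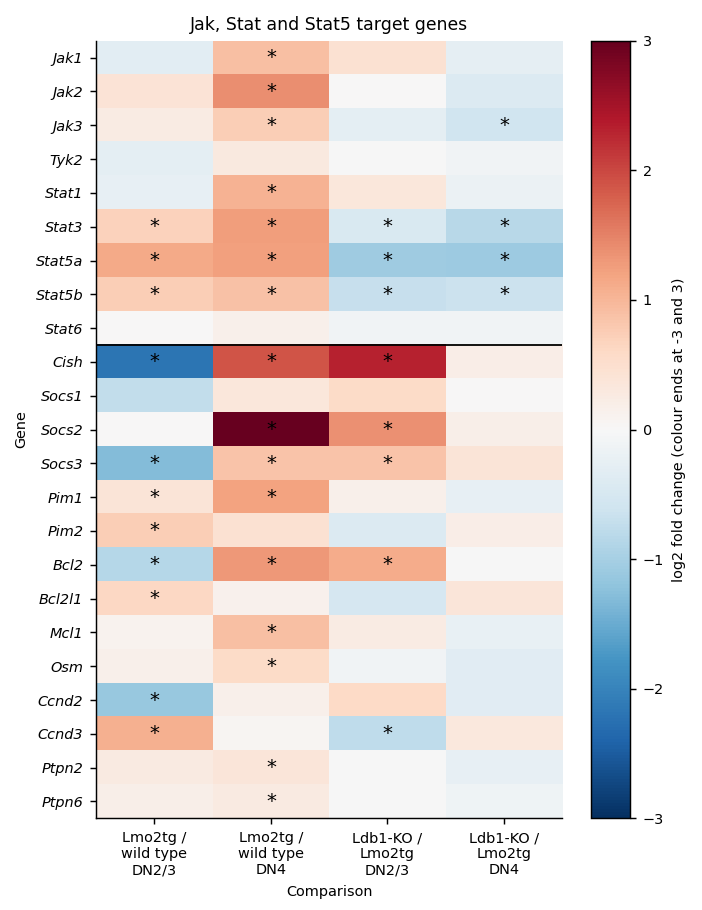
Log2 fold change (colour, ends at -3 and 3) of the 9 Jak and Stat genes (above the line) and 14 Stat5 target or feedback genes in the 4 main comparisons, with a star for an adjusted p below 0.05 in edgeR. Stat5a, Stat5b and Stat3 are red in both Lmo2tg columns and blue in both Ldb1-KO columns, while Cish, Socs3 and Bcl2 are blue in Lmo2tg and red in Ldb1-KO at DN2/3.

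Among 12 factors known or proposed to control Il7r transcription, 6 were higher and 0 lower in Lmo2tg at DN2/3 and 8 higher and 0 lower at DN4, beside 29.5% and 52.4% of all genes called. With only the compared groups, Gabpb1 (edgeR adjusted p = 0.142) and Runx1 (0.132) lost their DN4 calls. Klf2, a factor of mature and quiescent T cells that is also on the mature T-cell marker list, was higher at both stages (log2 2.09 and 2.91), and Tcf7 at DN2/3 (log2 0.54) and Runx3 at DN4 (log2 1.25). Against Lmo2tg, Ldb1-KO had 3 lower and 0 higher at each stage, beside 16.1% and 14.6% of all genes called, with Foxo3 lower at both (log2 -0.82 and -0.94), Gfi1, a repressor of Il7r, lower at both (log2 -0.53 and -0.33; the latter at an edgeR adjusted p of 0.0537 without the DN4 library highest in Cd4 of each transgenic group and 0.0876 with only the compared groups), Tcf7 lower at DN2/3 (log2 -0.39) and Runx3 lower at DN4 (log2 -0.91). Klf2 was not called there at DN2/3 (log2 0.29) or DN4 (log2 -0.61). Of the adaptor and traffic genes, Grb2 was higher in Lmo2tg at both stages (log2 1.00 and 0.89) and lower in Ldb1-KO than in Lmo2tg at both (log2 -0.48 and -0.72). Cblb, a ubiquitin ligase that restrains signalling, was lower in Lmo2tg at DN2/3 (log2 -0.95), higher at DN4 (log2 0.92) and higher in Ldb1-KO than in Lmo2tg at DN2/3 (log2 0.61). Of the 9 genes of that list, 1 was higher and 4 lower in Lmo2tg at DN2/3, 5 higher and 0 lower at DN4, and Ldb1-KO against Lmo2tg gave 2 higher and 1 lower at DN2/3 and 0 higher and 1 lower at DN4. The shares of all genes called in these 4 comparisons were 29.5%, 52.4%, 16.1% and 14.6%. With only the compared groups, Pik3r1 (edgeR adjusted p = 0.147), Pik3cd (0.0592) and Stam (0.0973) lost their calls in Lmo2tg against wild type at DN4.

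The ligands were scarce in these cells: of 7 ligand genes, Il15 and Tslp passed the filter. Il15 was at 2.61 ± 3.23 CPM in Lmo2tg DN4 (SD, n = 5), at 0.0426 ± 0.0382 in wild-type DN4 (SD, n = 4) and at 0.385 ± 0.386 in Ldb1-KO DN4 (SD, n = 5). The Lmo2tg excess was called (log2 5.85, SE 1.23, edgeR adjusted p = 0.000413), and so was the lower level in Ldb1-KO (log2 -2.74, SE 0.92, adjusted p = 0.0461). With limma-voom neither was (0.0511 and 0.586), and the second was not with a replicate block (log2 -2.01, adjusted p = 0.111, or 0.148 in the transgenic libraries alone), with no filter (0.0604) or with only the compared groups (0.241). The second was also lost without Lmo2tg DN4 replicate 3 (0.0979) or 5 (0.188), without Ldb1-KO DN4 replicate 1, 2, 4 or 5 (0.0618 to 0.113), and without any 1 of 13 libraries of the other groups (0.0506 to 0.0549). Tslp, which uses Il7r together with Crlf2, was higher in Lmo2tg than in wild type at DN4 (log2 1.79, SE 0.67, edgeR adjusted p = 0.0282) at a mean of 0.429 CPM, but not with limma-voom (0.477), a replicate block (0.0629), only the compared groups (0.166) or without Lmo2tg DN4 replicate 3 (0.241) or wild-type DN4 replicate 1, 3 or 4 (0.0677 to 0.0848). At DN2/3 neither ligand was called in Lmo2tg against wild type or in Ldb1-KO against Lmo2tg. There Il15 averaged 0.645 CPM in wild type, 1.78 in Lmo2tg and 2.93 in Ldb1-KO, and Tslp 2.18, 1.09 and 2.17 CPM. Il2ra, the alpha chain of the interleukin-2 receptor and a gate gene, was lower in Lmo2tg at DN2/3 (779 ± 159 CPM, SD, n = 5) than in wild type (1512 ± 140.3 CPM, SD, n = 4; log2 -0.96, SE 0.29, edgeR adjusted p = 0.0134) and higher in Ldb1-KO than in Lmo2tg (1396 ± 343 CPM, SD, n = 5; log2 0.84, SE 0.28, adjusted p = 0.0362), the latter not without Lmo2tg DN2/3 replicate 2, 4 or 5 or Ldb1-KO DN2/3 replicate 2 or 5 (edgeR adjusted p from 0.0661 to 0.129). Crlf2 was not called in any of the 4 main comparisons. Of the 3 partner chains tested, 0 were higher and 1 lower in Lmo2tg at DN2/3, beside 29.5% of all genes called. At DN4 2 were higher and 0 lower, beside 52.4%. These 2 were Il2ra, not called without wild-type DN4 replicate 1 (0.0742) or 4 (0.0728) or Lmo2tg DN4 replicate 3 (0.122) or with only the compared groups (0.075), and Il13ra1, at a mean of 0.142 CPM.

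Across the 28 libraries, the genes most like each member were ranked by Pearson's r of log2 CPM among genes tested, as a description over points that share genotype and stage. For Il7r they were Pfkfb3 (r = 0.89), Abcg3 (0.87) and Ulk2 (0.86), and for Il9r Slc25a13, Rps19bp1 and Pdlim1 (0.86 each). For Il2rb they were Trpm1 (0.98), Crtam (0.96) and Itgb2 (0.95), and for Il15ra Dnajc6 (0.92), Esr1 (0.91) and Ift57 (0.91). For Il2rg they were Cep120 (0.95), Shisa5 (0.95) and Macf1 (0.94), for Il4ra Cd274 (0.91), Gramd1a (0.90) and Id2 (0.89), and for Il21r Rasgef1a (0.92) and Art2b (0.89). Among the 21 pairs of members, r ran from -0.72 for Il2rb with Il15ra to 0.85 for Il2rb with Il21r, and Il2rg with Il4ra stood at 0.83. Il7r and Il9r, which share their direction in the Ldb1 comparison, had an r of -0.07 over all libraries.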

How the data were processed

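Bulk RNA-seq libraries (TruSeq RNA V2, paired reads of 101 bases, per the labels' protocols) were deposited by the authors as 1 table of raw counts per gene symbol for 28 samples. Per the submitters' processing notes, STAR 2.5.2a, featureCounts 1.4.6-p3 and the mm10 build were used. The annotation, the use of strand and the handling of reads with several matches were not stated. Groups and replicate numbers came from the labels. The series' design text names 4 Ldb1-KO replicates where the labels give 5, and all 5 were used.

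Counts were analysed in R 4.3.3 with edgeR 4.0.16 (filterByExpr, TMM scaling, robust quasi-likelihood F-tests, two-sided) in a model of 6 groups and 11 contrasts, with Benjamini-Hochberg adjustment over all 14371 genes tested. Every adjusted p-value in the text is from edgeR unless limma-voom (limma 3.58.1) or DESeq2 1.42.0 is named, and the 95% intervals use the model's standard error and degrees of freedom. CPM values are on TMM-scaled library sizes. The precision of a level follows from its counts and from the spread of 4 or 5 libraries a group. The test was tried on simulated counts first. Replicates of a group differed by more than sampling noise (lowest chi-square per degree of freedom 27.1), so none was a copy of another. Each library was counted once, though this difference cannot show that the replicates are separate animals.

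Within a genotype, same-numbered libraries of the 2 stages deviated together over all genes (r from 0.153 to 0.650 in 14 of 14 pairs), and stage comparisons were also fitted with these pairs as blocks. The numbers come from the labels, which do not say what a number marks. The names of the transgenic libraries run in sets of 4 by number, and replicate blocks over all libraries and over the transgenic ones were fitted too.

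The members and lists were chosen with earlier results of these data known. The text names all members, Lmo2 and Ldb1, and from each pathway list and main comparison the 2 called genes with the smallest adjusted p (with none called, the gene of highest mean CPM). Other pathway genes (Stat3, Jak3, Jak1, Stat6, Socs2, Pim2, Bcl2l1, Ccnd2, Ptpn2 and further values of Tcf7, Gfi1 and Klf2 among them) were named after their values were seen, as members of a count. Likeness to a member was ranked by Pearson's r of log2 CPM (prior count 2) for members with a mean of at least 1 CPM, and up to 3 genes are named for each, without predicted genes or receptor gene segments. One gene of that ranking is not reported here. Gene positions are from GENCODE M21 and promoter sequences from RefSeq (GRCm38.p6, 6 of 7 members matched). Alternatives changed the scaling, the filter, the tool, the samples in the fit and the blocks, or left out each library in turn.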

Additional observations from a re-analysis of the deposited data

Results flagged for a closer look

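In 3 of 42 sets of 4 or 5 libraries (each of the 7 receptors in each of the 6 groups), 1 library stood apart from the others of its group by Dixon's test. Chance alone flags about 1 in 20 such sets. Il2rb in Lmo2tg DN2/3 replicate 1 was at 3.53 CPM, where the other 4 libraries lay between 0.975 and 1.505 CPM. Il15ra in Lmo2tg DN2/3 replicate 2 was at 4.24 CPM, below the 6.05 to 6.74 CPM of the others. Il9r in Lmo2tg DN4 replicate 4 was at 51.7 CPM, above the 16.4 to 24.9 CPM of the others.

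The effect of the Lmo2 transgene differed between the stages for 3 receptors by the interaction test of edgeR. The DN4 effect minus the DN2/3 effect was log2 0.86 for Il2rg (adjusted p = 0.00783), log2 3.18 for Il4ra (adjusted p = 0.00424) and log2 -1.37 for Il9r (adjusted p = 0.0251).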

How the results depend on the processing

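Of 728 values of members under another tool, scaling, filter, choice of samples or block, 695 kept their side of the threshold, 22 lost a call and 11 gained one. Reversal of direction was counted only for values called in the main or the other fit, and 0 reversed. Leaving out 1 library at a time gave 2098, 52, 6 and 0 of 2156 in the same order. Without the DN4 library highest in Cd4 of each transgenic group, a setting added after the data were seen, it was 73, 3, 1 and 0 of 77. Some values called in neither fit did change sign. Over all these fits Il4ra in Lmo2tg against wild type at DN2/3 ran from log2 -0.17 to 0.27. Il2rb in Ldb1-KO against Lmo2tg at DN4 ran from log2 -0.48 to 0.75. The number of the 7 members called in Ldb1-KO against wild type at DN2/3 went from 1 to 0 with limma-voom and to 2 with only the compared groups in the fit, where Il4ra was called (log2 0.65, adjusted p = 0.0255). With only the compared groups, DN4 against DN2/3 in Lmo2tg went from 5 to 1. The cause was not tested. Leaving out 1 library gave 1 to 3 members in Lmo2tg against wild type at DN2/3 (1 without wild-type DN2/3 replicate 3) and 1 to 3 in Ldb1-KO against Lmo2tg at DN2/3 (1 without Ldb1-KO DN2/3 replicate 2 or 5). At DN4 it gave 5 to 6 in Lmo2tg and 4 to 5 in Ldb1-KO against wild type, and 2 to 4 in Ldb1-KO against Lmo2tg. Without TMM scaling (total counts only) the share of higher among called genes went from 51.3% to 40.9% in Lmo2tg against wild type at DN2/3, from 45.9% to 33.9% in the wild-type stage comparison and from 57.2% to 71.8% in the stage difference of the Lmo2tg effect. The median log2 change of all genes moved from -0.06 to -0.19 in the wild-type stage comparison and from 0.08 to 0.20 in that stage difference, and no called member changed direction. With limma-voom that share went from 40.2% to 50.5% in Ldb1-KO against Lmo2tg at DN4 and from 73.0% to 61.1% in Ldb1-KO against wild type at DN2/3. Members under about 1 CPM, such as Il2rb at DN2/3 in wild type, are limited by depth.

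With a replicate block within genotype, which pairs the stages, 5 in place of 3 members were called for the stage difference of the Lmo2tg effect and 1 in place of 0 for that of the Ldb1-KO effect. The other 3 stage comparisons stayed within 1.5 times. Across genotypes no label says what a number marks. In the transgenic groups the library names run in sets of 4 by number, and replicates 4 and 5 had 28095652 to 44877022 counts a library, against 45846876 to 74681292 for replicates 1 to 3. Lmo2tg and Ldb1-KO libraries of 1 number correlated with r from -0.0753 to 0.338 (5 of 10 above 0.1), and wild type and Lmo2tg with r from -0.179 to 0.00989 (0 of 8). An additive replicate block over all samples left every count within 1.5 times and brought the call of Il7r in the Lmo2tg stage comparison (log2 -0.95, adjusted p = 0.0172). A replicate block over the 20 transgenic libraries alone, added after the data were seen, kept the side of the threshold of 34 of 35 values of members in the 5 comparisons without wild type and brought the same Il7r call (log2 -0.9993, adjusted p = 0.0028).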
